A study of Homo sapiens with 9 samples.

Results

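A set of 9 genes of serine synthesis and folate one-carbon metabolism were followed across the deposited RNA-seq counts: PHGDH, PSAT1, PSPH, SHMT1, MTHFD1, SHMT2, MTHFD2, MTHFD1L and ALDH1L2. They were chosen by gene name, 9 of the 58735 genes listed, and each name matched 1 gene. The libraries came from HEK293T, a cell line of human embryonic kidney origin that expresses SV40 large T antigen, and every group shares the same genotype, PRPS1-HA-dTAG with PRPSAP1-V5-BromoTag. PRPS1 makes phosphoribosyl pyrophosphate, the sugar donor of nucleotide synthesis, and PRPSAP1 is a protein that associates with it. The 3 groups of 3 libraries were cells given dTAG47 at 500 nM for 24 h to remove PRPS1, cells given AGB1 at 500 nM for 24 h to remove PRPSAP1, and cells given DMSO, the solvent control for both. No library of untagged cells was analysed here, and the labels do not say whether the line is 1 clone or whether replicates were separate cultures, so p-values measure only the spread between these libraries.

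Serine is made in the cytosol from a glycolytic intermediate by PHGDH, PSAT1 and PSPH in turn. Serine hydroxymethyltransferases then pass a carbon from serine to tetrahydrofolate, leaving glycine, in the cytosol (SHMT1) and in mitochondria (SHMT2). The mitochondrial carbon is oxidised by MTHFD2 and released as formate by MTHFD1L, or burned to CO2 by ALDH1L2, and cytosolic MTHFD1 recaptures formate as the formyl-folate used for purine rings. Several of these genes, among them PHGDH, PSAT1, SHMT2 and MTHFD2, are known targets of the amino acid stress factor ATF4. The pathway supplies carbon to the same purine synthesis that uses the product of PRPS1.

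All 9 genes were expressed well above the filter on low counts and differed little between groups. With edgeR's quasi-likelihood test, adjusted by Benjamini-Hochberg over the 18319 genes tested, 0 of the 9 passed 0.05 with dTAG47 and 0 of the 9 with AGB1, where 0.06% and 0.104% of all tested genes did (11 and 19 genes). The 95% intervals were narrow, and the largest fold difference from DMSO that any of them allowed was 1.19 with dTAG47 and 1.30 with AGB1. The direction was mostly upward: 7 of the 9 log2 fold changes were above 0 with dTAG47 and 8 of the 9 with AGB1. Over all tested genes, 49.69% were above 0 with dTAG47 and 49.74% with AGB1. The 9 genes together took 0.195% ± 0.00292 of counts with dTAG47, 0.198% ± 0.000982 with AGB1 and 0.188% ± 0.00361 in DMSO (SD, n = 3 each). In bulk RNA, fewer cells expressing a gene and less RNA per cell cannot be told apart.

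Total counts ranged from 27964128 to 44803380 per library, so that 3 counts correspond to between 0.0670 and 0.107 CPM, a gene's count divided by the TMM-scaled library size and brought to a common total. Levels are given in CPM. PRPS1 messenger RNA averaged 109.9 ± 3.49 CPM with dTAG47, 109 ± 0.556 with AGB1 and 103 ± 3.77 in DMSO, and PRPSAP1 averaged 29.6 ± 2.68, 29.1 ± 1.67 and 29.4 ± 6.64 (SD, n = 3 each). Both compounds act on the tagged protein, so these messenger levels do not check its removal. The labels call the cells epithelial: KRT8 and KRT18 averaged 31.4 and 52.0 CPM over the 9 libraries and EPCAM 2.13 CPM, beside 354 CPM of VIM and 193 CPM of NEFM, while KRT19 had 6 counts and the leukocyte gene PTPRC 1 count in all. Base composition differed between libraries. The Spearman correlation across 11435 genes between GC content and a library's deviation from the gene means was lowest in DMSO 1 (-0.378) and highest in dTAG47 1 (0.623), and lay between -0.027 and 0.050 in the AGB1 libraries.

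Promoter sequence was listed for 6 of the 9 genes in RefSeq (GRCh38.p14), as the 250 bases before the annotated start. PSPH, SHMT2 and ALDH1L2 had no entry. Those of PHGDH, PSAT1, MTHFD2 and MTHFD1 are printed because the first 3 were, with PSPH, the genes whose AGB1 libraries all lay above the DMSO libraries, and MTHFD1 was the gene whose AGB1 libraries all lay below. Capitals mark CCAAT or its reverse complement ATTGG (the CCAAT box) and CACGTG (the E-box, the same on both strands). The regions are chr1:119711684-119711933, chr9:78296875-78297124, chr2:74198365-74198614 and chr14:64388103-64388352, all on the plus strand, written 5′ to 3′.
PHGDH: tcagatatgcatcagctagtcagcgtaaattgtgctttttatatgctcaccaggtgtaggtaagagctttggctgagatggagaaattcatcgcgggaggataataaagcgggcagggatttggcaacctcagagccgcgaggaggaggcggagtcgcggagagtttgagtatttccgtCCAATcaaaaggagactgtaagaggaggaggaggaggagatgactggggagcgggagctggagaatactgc
PSAT1: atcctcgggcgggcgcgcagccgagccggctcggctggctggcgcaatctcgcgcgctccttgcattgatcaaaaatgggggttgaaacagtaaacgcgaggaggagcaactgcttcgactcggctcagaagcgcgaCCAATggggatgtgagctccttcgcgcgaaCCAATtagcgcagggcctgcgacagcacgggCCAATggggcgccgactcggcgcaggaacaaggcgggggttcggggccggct
MTHFD2: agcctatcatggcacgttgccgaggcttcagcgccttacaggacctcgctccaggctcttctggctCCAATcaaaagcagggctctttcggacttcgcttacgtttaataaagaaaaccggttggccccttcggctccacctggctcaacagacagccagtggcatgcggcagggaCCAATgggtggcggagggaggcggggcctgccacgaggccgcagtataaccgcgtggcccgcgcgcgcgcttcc
MTHFD1: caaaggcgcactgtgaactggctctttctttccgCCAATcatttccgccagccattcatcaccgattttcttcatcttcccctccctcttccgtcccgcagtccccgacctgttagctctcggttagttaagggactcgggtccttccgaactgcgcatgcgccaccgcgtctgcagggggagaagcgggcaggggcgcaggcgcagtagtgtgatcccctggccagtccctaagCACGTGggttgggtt
The PSAT1 window held 3 CCAAT matches, 113, 83 and 52 bases before the start, and the MTHFD2 window 2, at 184 and 74 bases. PHGDH had 1 at 71 bases. MTHFD1 had 1 at 216 bases and an E-box at 15 bases. All 6 genes held a CCAAT match in their first listed window, as did 32.0% of the 35114 promoter windows of the whole table, and 6.35% of these held an E-box. The other motif searched, TGATGNAA or its reverse TTNCATCA, the core of the composite element that ATF4 and C/EBP proteins bind, was in 3.14% of all windows. Of the 6 genes, MTHFD1L alone held it, as TGATGCAA 129 bases before the start in the first of its 4 listed windows, shown in capitals in the 40 bases at chr6:150866341-150866380, plus strand. None of the motifs overlap each other in these windows, and a match is a description of letters, not of binding.
MTHFD1L: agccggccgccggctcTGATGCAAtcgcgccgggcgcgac

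Levels between the genes were compared per length, as CPM per kilobase of the principal transcript, in DMSO. PSAT1 stood highest at 166 ± 2.29 and PHGDH followed at 158 ± 5.46, then SHMT2 at 104 ± 6.42, MTHFD1 at 90.2 ± 1.27 and MTHFD2 at 64.8 ± 2.37 CPM per kilobase (SD, n = 3). The low group was SHMT1 at 28.3 ± 0.805, PSPH at 24.5 ± 1.64, MTHFD1L at 20.2 ± 1.03 and ALDH1L2 at 9.12 ± 0.351 CPM per kilobase (SD, n = 3). No 2 neighbours in this order overlapped in their DMSO libraries. The order between its ends depended on the length used. Over the union of all annotated exons PHGDH came to 44.4 and MTHFD2 to 59.3 CPM per kilobase, and PHGDH moved from rank 2 to rank 4. SHMT1 moved from rank 6 to rank 8, at 9.57 CPM per kilobase, below PSPH at 19.3 and MTHFD1L at 14.5. PSAT1 stayed at the top and ALDH1L2 at the bottom under both lengths. At most 1.43% of the 75-base words of any of these transcripts occur in another gene, for PSPH with its pseudogene PSPHP1 and with SLC7A7. Of the exonic bases of MTHFD2, 27.2% lie opposite SLC4A5, which had 0.455 CPM, and 2.69% of those of SHMT1 lie opposite SMCR8, which had 62.2 CPM. The strand setting of the counting is not given in the sources used here, so reads of such overlaps could have been shared.

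**Figure D1:**
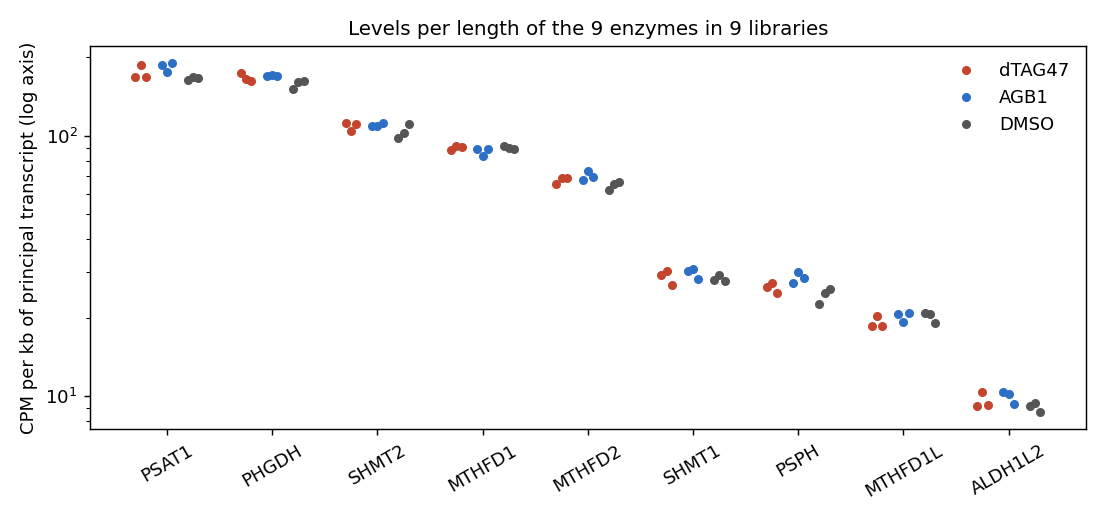
Levels of the 9 enzymes as CPM per kilobase of the principal transcript, on a log axis, in the 9 libraries (points, coloured by group). PSAT1 and PHGDH sit at the top and ALDH1L2 at the bottom in every library, and the groups lie close together for every gene.

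Serine synthesis enzymes had median log2 fold changes of 0.08 for dTAG47 and 0.15 for AGB1, and all 3 were above 0 with each compound. PHGDH (ENSG00000092621, chr1:119648411-119744226, plus strand, GRCh38), which oxidises phosphoglycerate and opens the pathway, had 452, 428 and 421 CPM with dTAG47, 438, 442 and 438 CPM with AGB1, and 393, 415 and 419 CPM in DMSO. Every library of either compound lay above every DMSO library, the closest being dTAG47 3 and DMSO 3. On the log2 scale PHGDH had a fold change of 0.08 for dTAG47 (95% interval -0.01 to 0.18, edgeR adjusted p = 0.740) and 0.10 for AGB1 (0.01 to 0.20, edgeR adjusted p = 0.607).

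PSAT1 (ENSG00000135069, chr9:78297143-78330093, plus strand), the aminotransferase of the second step, had 368, 408 and 368 CPM with dTAG47, 408, 386 and 416 CPM with AGB1, and 358, 368 and 366 CPM in DMSO. The AGB1 libraries were clear of the DMSO libraries, whereas 2 of the dTAG47 libraries were level with the highest DMSO library and only dTAG47 2 stood apart. Its log2 fold change was 0.07 for dTAG47 (-0.04 to 0.17, edgeR adjusted p = 0.825) and 0.15 with AGB1 (0.04 to 0.25, edgeR adjusted p = 0.388). PSPH (ENSG00000146733, chr7:56011051-56051604, minus strand), the phosphatase that releases serine, had 57.4, 59.3 and 54.4 CPM with dTAG47, 59.3, 65.2 and 61.9 CPM with AGB1, and 49.4, 54.0 and 56.4 CPM in DMSO. Here too the AGB1 libraries lay above all DMSO libraries, and the dTAG47 libraries overlapped them. PSPH had the highest log2 fold change of the 9 genes with AGB1, 0.22 (SE 0.08, 0.06 to 0.38, edgeR adjusted p = 0.388), and 0.10 with dTAG47 (-0.06 to 0.26, edgeR adjusted p = 0.829). The mean log2 CPM of the 3 enzymes was 7.72 ± 0.05 with dTAG47, 7.80 ± 0.01 with AGB1 and 7.64 ± 0.06 in DMSO (SD, n = 3 each), with the AGB1 libraries above both other groups.

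**Figure D2:**
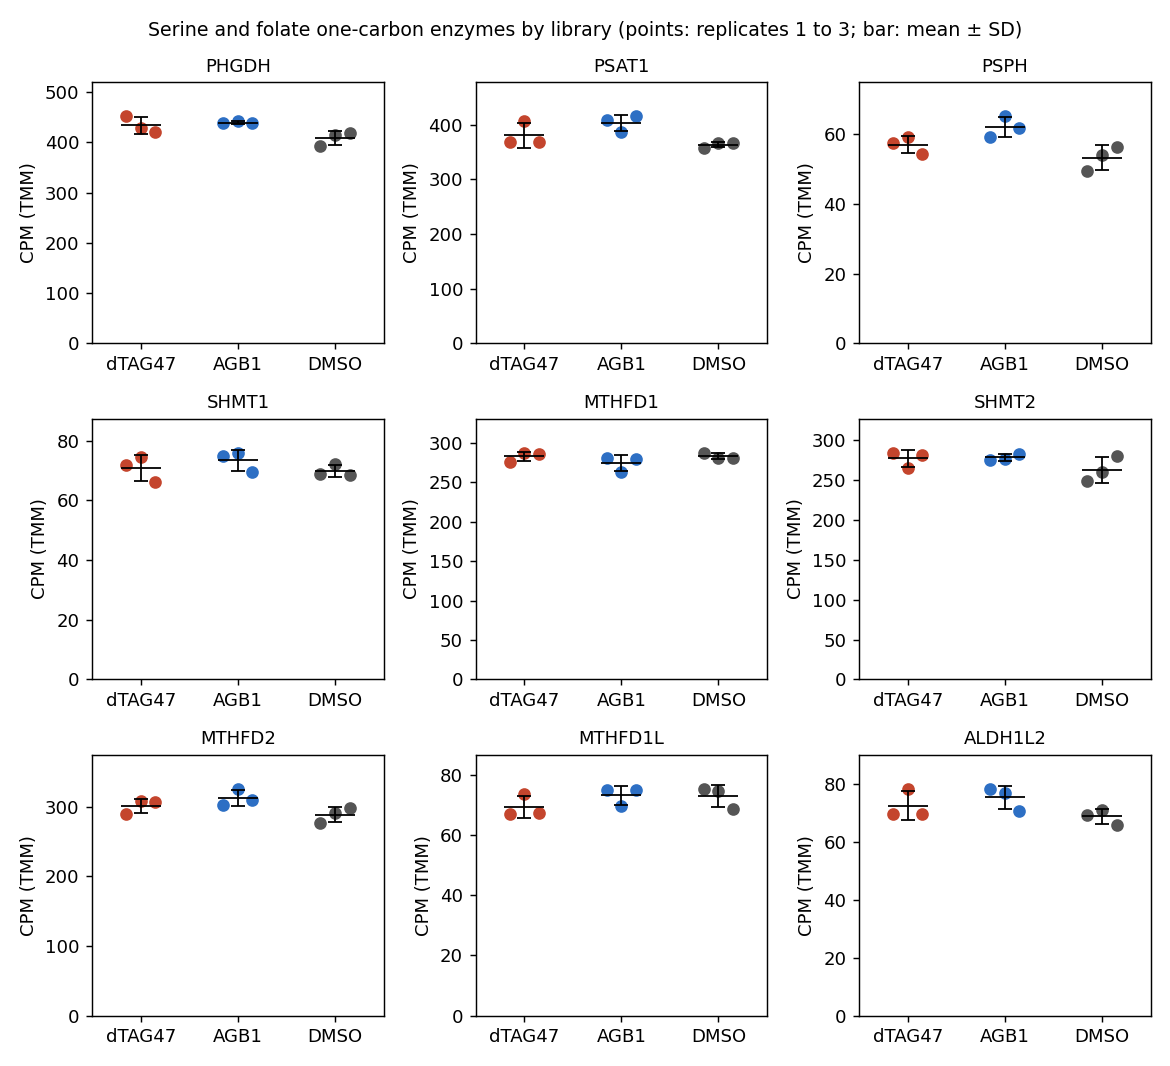
CPM of each of the 9 enzymes, 1 panel per gene with the axis from 0, in the dTAG47, AGB1 and DMSO libraries (points: replicates 1 to 3 from left to right; bar: mean ± SD). In PHGDH, PSAT1, PSPH and MTHFD2 the 3 AGB1 points all sit above the 3 DMSO points, and DMSO 1 is the lowest of the 9 libraries in each of these genes.

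The cytosolic folate enzymes had log2 fold changes of opposite sign with AGB1. SHMT1 (ENSG00000176974, chr17:18327860-18363563, minus strand), the cytosolic serine hydroxymethyltransferase, had 71.8, 74.6 and 66.0 CPM with dTAG47, 74.7, 76.0 and 69.5 CPM with AGB1, and 68.8, 72.0 and 68.4 CPM in DMSO. The 3 groups overlapped, and the log2 fold change was 0.02 with dTAG47 (-0.12 to 0.17) and 0.07 with AGB1 (-0.07 to 0.22). MTHFD1 (ENSG00000100714, chr14:64388031-64463457, plus strand), the trifunctional enzyme that loads formate onto folate and interconverts the loaded forms, had 276, 287 and 285 CPM with dTAG47, 280.2, 263 and 280.1 CPM with AGB1, and 288, 281 and 280.3 CPM in DMSO. All AGB1 libraries were below all DMSO libraries, though 2 of them by less than 1 CPM from the lowest DMSO library. Its log2 fold change was -0.04 with AGB1 (-0.15 to 0.06, edgeR adjusted p = 0.886), and the interval with dTAG47 ran from -0.10 to 0.10 around a value near 0. MTHFD1 was the gene with a negative value under both compounds, and with dTAG47 its sign turned under several other settings.

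Of the 4 mitochondrial folate enzymes, MTHFD2 separated AGB1 from DMSO and the others overlapped. MTHFD2 (ENSG00000065911, chr2:74198562-74217565, plus strand), the mitochondrial dehydrogenase and cyclohydrolase, had 290.0, 308 and 307 CPM with dTAG47, 303, 325 and 309 CPM with AGB1, and 277, 291 and 297 CPM in DMSO. The AGB1 libraries were all higher than the DMSO libraries, with dTAG47 1 within the DMSO range. Its log2 fold change was 0.06 with dTAG47 (-0.04 to 0.17) and 0.11 with AGB1 (0.01 to 0.22, edgeR adjusted p = 0.589). SHMT2 (ENSG00000182199, chr12:57229327-57234935, plus strand), the mitochondrial hydroxymethyltransferase, had 285, 266 and 282 CPM with dTAG47, 276, 277 and 283 CPM with AGB1, and 249, 260.0 and 281 CPM in DMSO. DMSO 3 lay within the range of the treated libraries, and the log2 fold change was 0.08 with either compound (-0.03 to 0.19 in both).

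MTHFD1L (ENSG00000120254, chr6:150865549-151101887, plus strand), the mitochondrial formate-releasing synthetase, was the mitochondrial gene with a negative value under dTAG47. It had 67.1, 73.5 and 67.4 CPM with dTAG47, 74.8, 69.7 and 75.0 CPM with AGB1, and 75.3, 74.8 and 68.7 CPM in DMSO. The 3 groups overlapped. The log2 fold change was -0.07 with dTAG47 (-0.22 to 0.07) and 0.01 with AGB1 (-0.14 to 0.15). ALDH1L2 (ENSG00000136010, chr12:105019784-105084577, minus strand), the formyl-folate dehydrogenase of mitochondria, had 69.5, 78.3 and 69.8 CPM with dTAG47, 78.3, 77.1 and 70.8 CPM with AGB1, and 69.5, 71.1 and 65.9 CPM in DMSO. AGB1 3 fell within the DMSO range, and the log2 fold change was 0.08 with dTAG47 (-0.07 to 0.23) and 0.13 with AGB1 (-0.02 to 0.28, edgeR adjusted p = 0.697). ALDH1L1, the cytosolic enzyme of the same reaction, had 14 counts over all 9 libraries and was not tested.

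**Figure D3:**
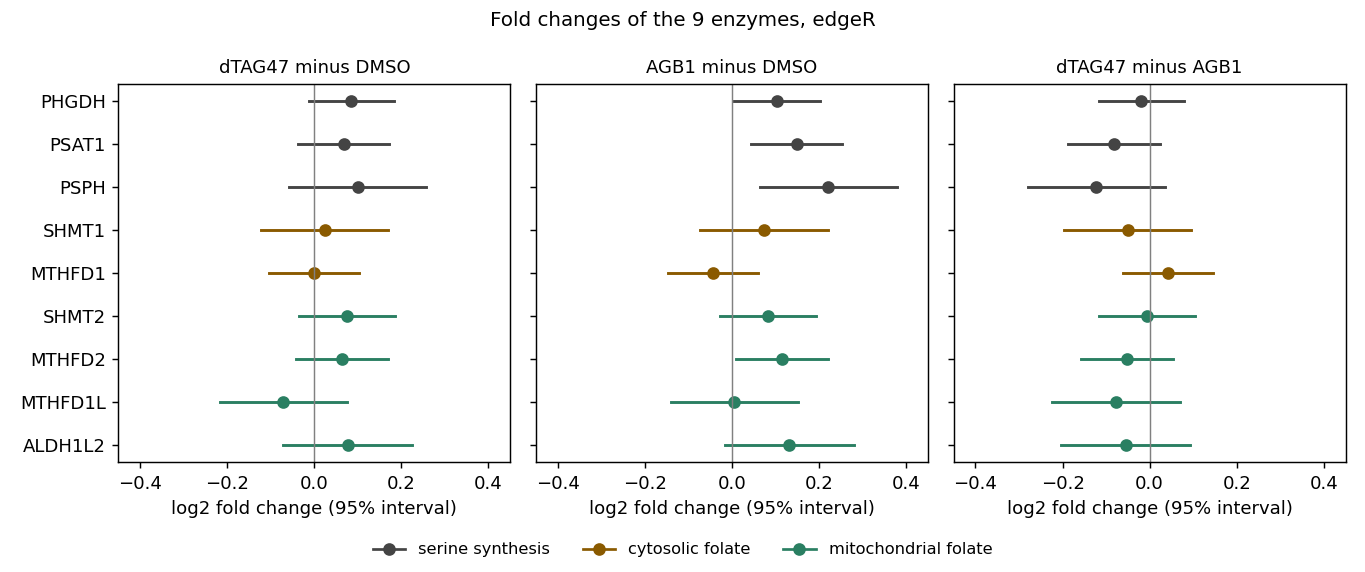
Log2 fold changes of the 9 enzymes (points) with 95% intervals (lines) for each compound minus DMSO and for dTAG47 minus AGB1, from edgeR, coloured by serine synthesis, cytosolic folate and mitochondrial folate enzymes. The intervals of PHGDH, PSAT1, PSPH and MTHFD2 lie above 0 with AGB1, and every other interval crosses 0.

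Over the 9 genes, the median log2 fold change with dTAG47 was 0.07, beside -0.00097 over all tested genes and 0.0052 over the 11436 tested genes at 5 CPM or more. No member had an unadjusted p under 0.05 with dTAG47, where 7.28% of all tested genes did. The dTAG47 libraries were all above the DMSO libraries in 2 of 9 members, PHGDH and PSAT1, and all below in 0, against 5.8% and 5.82% of tested genes. For PSAT1 the closest libraries were almost level, dTAG47 1 at 367.64 CPM and DMSO 2 at 367.60 CPM. With AGB1 the median was 0.10, beside -0.00092 over all tested genes. The AGB1 libraries were all above in 4 of 9 members and all below in 1, against 6.56% and 6.75% of tested genes. The 4 higher ones, PHGDH, PSAT1, PSPH and MTHFD2, were also those with an unadjusted p under 0.05 (0.0391, 0.0071, 0.0074 and 0.0348, edgeR), where 3.55% of tested genes were higher at that level and 4.46% of those at 5 CPM or more. These 4 genes were measured in the same libraries and are not independent, and none passed after adjustment. Both comparisons use the same 3 DMSO libraries.

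Some cell type markers also separated the AGB1 from the DMSO libraries. Of the 5 neural and mesenchymal markers, 3 had all AGB1 libraries above the DMSO libraries and 0 below, and 2 of these had an unadjusted edgeR p under 0.05: NEFM, a neurofilament gene, averaged 190.2 ± 17.5 CPM with dTAG47, 209 ± 8.80 with AGB1 and 180.0 ± 12.2 in DMSO, and NEFL 107 ± 1.77 CPM with AGB1 against 96.8 ± 2.09 in DMSO (SD, n = 3 each). Of the 4 tested epithelial markers, 2 had log2 fold changes above 0 with AGB1 and 2 below, from -0.31 to 0.14. KRT8 and CDH1 had all AGB1 libraries below the DMSO libraries. Of the 4 tested epithelial markers, 1 was lower with AGB1 at an unadjusted edgeR p under 0.05. KRT8 averaged 33.4 ± 0.488 CPM with dTAG47, 27.4 ± 1.78 with AGB1 and 33.3 ± 1.76 in DMSO. Over all tested genes, 6.56% had all AGB1 libraries above the DMSO libraries and 6.75% had them all below. At an unadjusted edgeR p under 0.05, 3.55% of all tested genes were higher with AGB1 and 4.21% lower. None of these markers passed after adjustment in edgeR. The summed level of the 5 neural and mesenchymal markers was 728 to 795 CPM with dTAG47, 756 to 795 CPM with AGB1 and 742 to 775 CPM in DMSO, and that of the 5 epithelial markers 82.8 to 95.9 CPM, 87.7 to 96.0 CPM and 93.1 to 100.2 CPM, so that the groups overlapped in both sums. The part of these markers in the values of the 9 enzymes was not tested.

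One control library lay low in most of these genes. DMSO 1 was the lowest of the 9 libraries for 5 of the 9 members, PHGDH, PSAT1, PSPH, SHMT2 and MTHFD2, and the highest for MTHFD1 and MTHFD1L. Without DMSO 1, the log2 fold changes with AGB1 were 0.08 for PHGDH, 0.14 for PSAT1, 0.17 for PSPH, 0.09 for MTHFD2 and 0.05 for SHMT2, and the median over the members was 0.08. Without it, the median with dTAG47 was 0.04, against 0.07 with all libraries. With the trend of GC content removed, the AGB1 values were 0.08, 0.15, 0.20, 0.12 and 0.06 for the same 5 genes. The dTAG47 values were then 0.06, 0.08, 0.08, 0.09 and 0.03, against 0.08, 0.07, 0.10, 0.06 and 0.08 without the correction. Leaving out both DMSO 1 and dTAG47 1, a choice made after the data were seen, gave 0.03 for PHGDH, 0.05 for PSPH and 0.02 for SHMT2 with dTAG47. The part of base composition in the upward direction was not tested beyond these values.

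**Figure D4:**
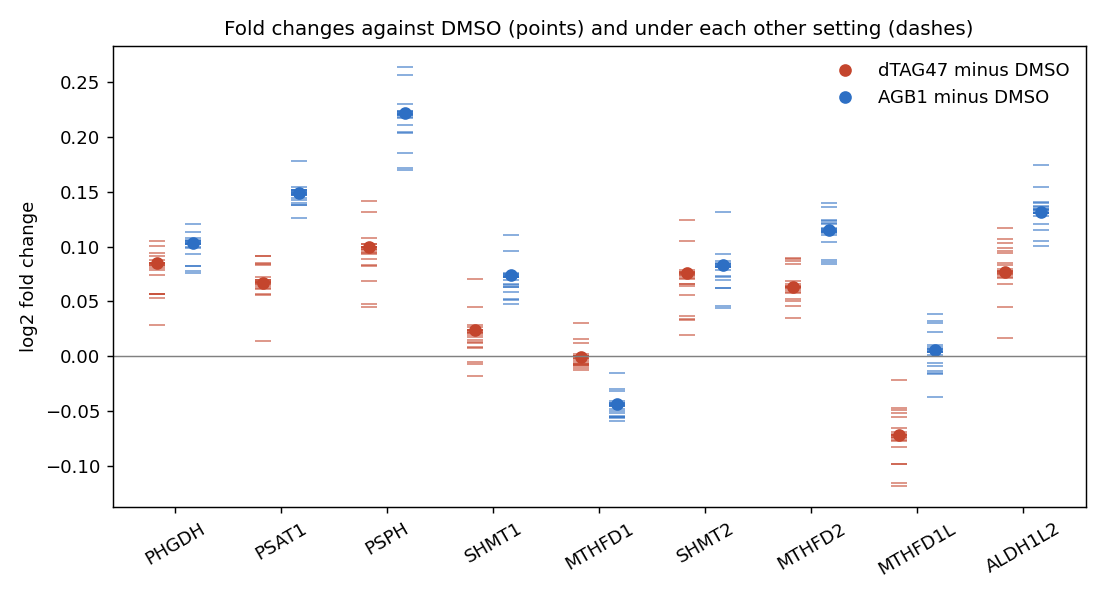
Log2 fold changes against DMSO of the 9 enzymes (points) and their values under each of the other settings (dashes), with dTAG47 left of AGB1 in each pair. The AGB1 values of PHGDH, PSAT1, PSPH and MTHFD2 stay above 0 under every setting tried, and those of SHMT1 and MTHFD1 with dTAG47 and of MTHFD1L with AGB1 fall on both sides of 0.

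Mitochondrial and cytosolic folate enzymes were set against each other within each library, as the mean log2 CPM of SHMT2, MTHFD2, MTHFD1L and ALDH1L2 minus that of SHMT1 and MTHFD1. The difference was -0.01, 0.01 and 0.05 with dTAG47, 0.04, 0.07 and 0.07 with AGB1, and -0.03, -0.01 and 0.01 in DMSO. AGB1 libraries were all above the DMSO libraries, by 0.07 on average, and dTAG47 libraries overlapped both other groups, at 0.03 above DMSO. The spread between replicates was 0.02 (pooled SD), and no p was computed for a score over chosen genes. The separation rested on the choice of genes: without ALDH1L2 the AGB1 and DMSO libraries overlapped. Their difference was then 0.05, beside a pooled SD of 0.04.

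Pair by pair, the mean AGB1 minus DMSO difference in log2 was 0.17 for ALDH1L2 against MTHFD1, 0.16 for MTHFD2 against MTHFD1, 0.05 for MTHFD1L against MTHFD1 and 0.01 for SHMT2 against SHMT1. All but the last of these pairs share MTHFD1, which had a log2 fold change of -0.04 with AGB1, so they are not separate readings. ALDH1L2 minus MTHFD1 was -1.96 ± 0.08 with dTAG47, -1.86 ± 0.11 with AGB1 and -2.04 ± 0.05 in DMSO (log2 CPM, SD, n = 3 each), and the AGB1 and DMSO libraries overlapped. MTHFD2 over MTHFD1 was 1.07 ± 0.0137 in CPM with dTAG47, 1.14 ± 0.0835 with AGB1 and 1.02 ± 0.0511 in DMSO (SD, n = 3 each), and in log2 terms the AGB1 libraries lay above all libraries of both other groups. AGB1 2, the library highest in MTHFD2 and lowest in MTHFD1, stood out among them. SHMT2 over SHMT1 was 3.93 ± 0.356 with dTAG47, 3.81 ± 0.239 with AGB1 and 3.78 ± 0.285 in DMSO, and the 3 groups overlapped. MTHFD1L over MTHFD1 was 0.245 ± 0.0101 with dTAG47, 0.266 ± 0.00175 with AGB1 and 0.258 ± 0.0112 in DMSO, with dTAG47 libraries all below the AGB1 libraries and DMSO overlapping both. These are ratios of CPM, which do not compare levels between genes; per kilobase of principal transcript MTHFD2 over MTHFD1 was 0.718 ± 0.0360 in DMSO, and per kilobase of exon union 1.96 ± 0.0984.

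**Figure D5:**
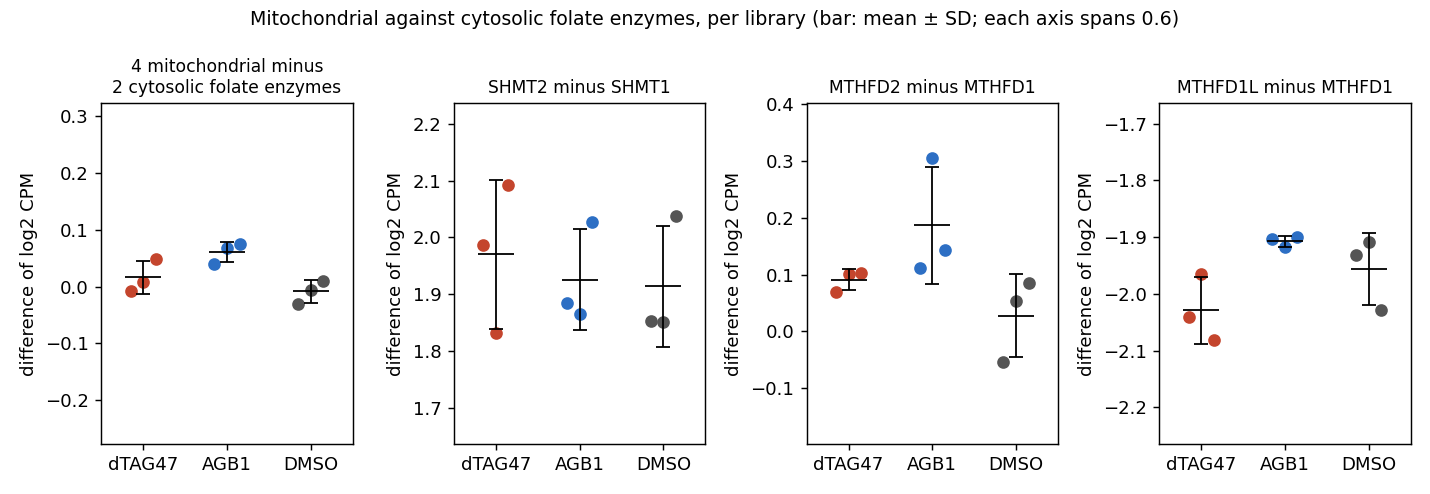
Difference of log2 CPM per library between the 4 mitochondrial and the 2 cytosolic folate enzymes, and for 3 matched pairs, in dTAG47, AGB1 and DMSO (points: libraries; bar: mean ± SD; every axis spans 0.6). In the first panel the AGB1 points lie between 0.04 and 0.07 and the DMSO points between -0.03 and 0.01, and in the SHMT2 minus SHMT1 panel the groups overlap.

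Set directly against each other, dTAG47 and AGB1 gave no call for any of the 9 genes, nor for any tested gene (0%), by edgeR, DESeq2 or limma-voom; without a count filter edgeR called 13 genes, none of them a member. At an unadjusted edgeR p under 0.05 there were 0 members, where 736 of all tested genes (4.02%) were found. The log2 fold change of dTAG47 over AGB1 was below 0 in 8 of 9 members, with a median of -0.05, MTHFD1 being the exception at 0.04. PSPH had the lowest value, -0.12 (-0.28 to 0.03), and its dTAG47 libraries were all below its AGB1 libraries, by a gap of under 0.1 CPM. That made 1 of 9 members with lower and 0 with higher libraries, against 5.1% and 5.35% of tested genes. The intervals allow a difference of up to 1.21-fold between the compounds for any member. For PSAT1 the value was -0.08 (-0.19 to 0.02) and for PHGDH -0.02.

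Other genes of the pathway, 43 tested in 5 lists by role, gave 0 calls with either compound by edgeR, DESeq2 or limma-voom. At an unadjusted edgeR p under 0.05, 2 were higher and 4 lower with dTAG47, and 6 were higher and 0 lower with AGB1, where 3.65% and 3.62% of all tested genes were with dTAG47 and 3.55% and 4.21% with AGB1. Enzymes that use one-carbon units had 5 of 6 values above 0 with dTAG47 (median log2 fold change 0.07) and 6 of 6 with AGB1 (0.14). Among them TYMS, which makes thymidylate, averaged 35.5 ± 2.98 CPM with dTAG47, 36.3 ± 0.947 with AGB1 and 31.2 ± 1.05 in DMSO, a log2 fold change of 0.18 (edgeR adjusted p = 0.681) and 0.22 (0.523). MTFMT, which formylates the mitochondrial initiator tRNA, had 0.25 with AGB1 (edgeR adjusted p = 0.552). The 10 tested genes of the methionine cycle and transsulfuration had 5 values above 0 with dTAG47 (median 0.03) and 10 with AGB1 (0.06). Of all tested genes, 49.69% were above 0 with dTAG47 and 49.74% with AGB1. CTH, which cleaves cystathionine to cysteine, averaged 32.6 ± 3.33 CPM with dTAG47, 36.1 ± 3.31 with AGB1 and 29.2 ± 1.79 in DMSO, with 0.31 for AGB1 (SE 0.10, edgeR adjusted p = 0.358). CBS, the step before it, had 69.4, 94.9 and 52.1 CPM with dTAG47, 89.9, 97.7 and 50.2 CPM with AGB1, and 55.7, 56.4 and 76.1 CPM in DMSO. The 3 groups overlapped and the spread within each was wide, and the log2 fold change with AGB1 was 0.34 (edgeR adjusted p = 0.653, and 0.0064 when no count filter was used). CBS has an annotated near-identical copy, and whether reads were split between them was not tested.

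Folate-handling genes outside the 9 went neither way: 4 of 10 tested values were above 0 with dTAG47 (median -0.03) and 5 of 10 with AGB1 (0.01). MTHFSD had a log2 fold change of -0.24 with dTAG47 (edgeR adjusted p = 0.658). Glycine-linked genes had 4 of 6 above 0 with dTAG47 (0.06) and 3 of 6 with AGB1 (0.04). GCSH, the carrier protein of the glycine cleavage system, averaged 13.7 ± 1.96 CPM with dTAG47, 15.3 ± 1.39 with AGB1 and 16.6 ± 1.48 in DMSO, and DLD, its dehydrogenase, 198 ± 8.85, 212 ± 3.16 and 216 ± 4.09 (SD, n = 3 each). The dTAG47 libraries of DLD were all below the DMSO libraries, with a log2 fold change of -0.12 (edgeR adjusted p = 0.627). Transport genes had 8 of 11 above 0 with each compound, with medians of 0.10 for dTAG47 and 0.12 for AGB1. SLC1A4, a carrier of serine and other small neutral amino acids, averaged 33.6 ± 2.74 CPM with dTAG47, 36.7 ± 1.81 with AGB1 and 31.1 ± 1.38 in DMSO (AGB1 log2 fold change 0.24, edgeR adjusted p = 0.477). SFXN3, a mitochondrial serine carrier, had the lowest unadjusted p of the transport genes between the compounds, at 17.5 ± 2.20 CPM with dTAG47 against 13.7 ± 0.519 with AGB1 (log2 fold change 0.35, edgeR adjusted p = 0.999).

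Of the list of ATF4, related regulators and reference ATF4 targets, 2 of 17 rose with dTAG47 and 3 of 17 with AGB1, and 0 fell. Over all tested genes, 0.0328% rose and 0.0273% fell with dTAG47, and 0.0546% rose and 0.0491% fell with AGB1. The list was chosen with earlier results of these data known, so its counts beside these shares test nothing about the list. CHAC1, a glutathione-degrading enzyme, had 12.4, 10.3 and 12.4 CPM with dTAG47, 10.3, 12.0 and 13.2 CPM with AGB1, and 5.30, 7.60 and 7.15 CPM in DMSO, a log2 fold change of 0.80 (edgeR adjusted p = 0.0330) and 0.82 (0.0207). SLC7A5, a carrier of large neutral amino acids, rose by 0.28 with dTAG47 (edgeR adjusted p = 0.0213) and by 0.31 with AGB1 (0.0034). MYC rose with AGB1, at 185 ± 6.59 CPM against 151 ± 7.89 in DMSO (SD, n = 3 each; log2 fold change 0.29, edgeR adjusted p = 0.0409), and had 0.13 with dTAG47 (0.676). Leaving out single libraries could lose these calls. Without DMSO 1, CHAC1 had 0.66 for dTAG47 (edgeR adjusted p = 0.175) and 0.69 for AGB1 (0.122), and MYC 0.25 for AGB1 (0.138). Without DMSO 2, SLC7A5 had 0.24 for dTAG47 (0.330) and 0.27 for AGB1 (0.0901). Treated libraries did the same: CHAC1 had 0.76 for dTAG47 without dTAG47 3 (0.223) and 0.74 for AGB1 without AGB1 3 (0.228). Of 9 libraries left out in turn, CHAC1 lost its call in 5 with dTAG47 and 3 with AGB1. SLC7A5 lost it in 2 with each compound and MYC in 6 with AGB1. Whether particular libraries or fewer replicates lay behind this was not tested. Some calls were also lost with no library of the compared groups left out. By limma-voom, CHAC1 had an adjusted p of 0.0783 with dTAG47 and 0.0566 with AGB1. The edgeR fit of dTAG47 and DMSO alone gave 0.0917 for both CHAC1 and SLC7A5. For MYC with AGB1, edgeR gave 0.0785 with the replicate block and 0.0545 on library sizes alone. Over 22 other settings, the adjusted p stayed under 0.05 in 14 for CHAC1 and 19 for SLC7A5 with dTAG47, and in 17 for CHAC1, 20 for SLC7A5 and 14 for MYC with AGB1. ATF4 itself averaged 1033 ± 14.8 CPM with dTAG47, 1064 ± 13.1 with AGB1 and 974 ± 43.6 in DMSO, with log2 fold changes of 0.08 and 0.13 (edgeR adjusted p = 0.684 and 0.366). The median of this list was 0.09 with dTAG47 and 0.13 with AGB1, beside 0.07 and 0.10 for the 9 enzymes. No test of a difference between the lists was made.

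The 9 enzymes did not vary as one block across the libraries. Over the 36 pairs of members, the Pearson correlation of log2 CPM across the 9 libraries had a median of 0.391 and ran from -0.704 for PSPH with MTHFD1 to 0.878 for PSPH with MTHFD2. After the group means were subtracted, the median was 0.096. All points share the same libraries, groups and base composition, and the values are descriptive. The protein-coding genes most like PHGDH in this measure, among 10838, were MRPL24 (0.969) and BSG (0.964). For PSPH they were ADPRHL2 (0.972) and CYB5D2 (0.968), for SHMT2 NINJ1 (0.981) and CDC34 (0.979), and for MTHFD1 RBM45 (0.953) and TTLL7 (0.934). For each gene these are the 2 highest values among 10838 candidates over 9 libraries, and so are high by selection. No member was among the 2 genes most like another member. With so many candidates, this says little about whether the members vary together.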

How the data were processed

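Poly(A)-selected RNA was sequenced in 9 libraries, 3 per group. The authors deposited whole-number counts per gene, not normalized, 1 file per library. HISAT2, DESeq2 and the hg38 build are named per the labels (the submitters' processing notes); for versions, the counting tool and strandedness the sources used here give nothing. Gene models match GENCODE 29 (GRCh38) for all 58735 genes. From the counts, edgeR 4.0.16 (R 4.3.3) kept 18319 genes by filterByExpr and scaled libraries by TMM. One quasi-likelihood fit over the 9 libraries, with a coefficient per group, was tested by glmQLFTest at 0.05 after Benjamini-Hochberg adjustment, two-sided. The fit was tested on simulated counts. Log2 CPM used a prior count of 2. Total counts were 27964128 to 44803380; without molecular identifiers, limits from counts cover counting error only. Alternatives were DESeq2 1.42.0, limma-voom (limma 3.58.1), other scalings, filters and group subsets, GC correction (lowess span 0.3), a replicate block, and leaving out libraries. The members and lists were chosen with earlier results of these data known. The text names the 9 members, PRPS1 and PRPSAP1, list genes past the threshold or, where none passed, from the 2 of lowest unadjusted p per comparison, and the 2 genes most like a member. ATF4, ALDH1L1, the markers and the genes of the closing section were added from the lists after their values were seen. Promoters are from RefSeq (GRCh38.p14).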

Additional observations from a re-analysis of the deposited data

How the results depend on the processing

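None of the 9 enzymes was called under any of 22 other settings per comparison; the lowest edgeR, DESeq2 or limma-voom adjusted p of a member was 0.165 (PSAT1 with AGB1, GC trend removed). Of 594 member values, 22 changed sign, the largest of them 0.0373 in size. MTHFD1 with dTAG47 was -0.00019, and became 0.000085 (DESeq2), 0.00044 (limma-voom), 0.000047 (DESeq2 size factors), 0.0026 (no count filter), 0.00053 (only the 2 groups compared) and 0.030 (DMSO 1 and dTAG47 1 left out, chosen after the data were seen), and ranged from -0.012 to 0.016 with 1 library left out. SHMT1 with dTAG47 was -0.0047 with the GC trend removed and ranged from -0.018 to 0.071 with 1 library left out. MTHFD1L with AGB1 was -0.0057 on library sizes alone, -0.016 with the GC trend removed, and -0.037 to 0.039 with 1 library left out. SHMT2 in dTAG47 minus AGB1 was 0.0016 on library sizes alone and -0.025 to 0.023 with 1 library left out. The causes were not tested. Same-numbered libraries correlated between -0.156 and 0.072 in their deviations, so the numbers were not taken as pairs; with the replicate block 0 members were called, MTHFD1 with dTAG47 was 0.000016, and all-gene calls were 10, 17 and 0. With the block and GC correction together SHMT1 with dTAG47 was -0.0072 and MTHFD1L with AGB1 -0.015. Calls over all genes were 11 with dTAG47 (2 to 20 with 1 library left out), 19 with AGB1 (6 to 55) and 0 between the compounds (0 to 2). DESeq2 called 47, 81 and 0, no count filter gave 43, 67 and 13, GC correction 22, 49 and 0, and the 2-group fit with dTAG47 gave 4. The median over members lay between 0.016 and 0.071 with dTAG47, 0.076 and 0.12 with AGB1, and -0.091 and -0.026 between the compounds; the lowest with dTAG47 came without dTAG47 2. The mitochondrial minus cytosolic difference stayed between 0.0091 and 0.037 with dTAG47, 0.059 and 0.080 with AGB1, and -0.060 and -0.032 between the compounds.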

Other observations

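Several genes that would complete the pathway were at or near 0 in these libraries. BHMT2, a methyltransferase that regenerates methionine from homocysteine, had 0 counts in all 9 libraries, which at 3 counts allows up to between 0.0670 and 0.107 CPM per library, and its relative BHMT averaged 0.0025 CPM. In the glycine cleavage system the aminomethyltransferase AMT was too low to be tested, while its partner DLD averaged 216 ± 4.09 CPM in DMSO (SD, n = 3). MTHFD2L, the mitochondrial relative of MTHFD2, was not near 0 and averaged 18.3 CPM over the 9 libraries. Its log2 fold change was -0.02 with dTAG47 (edgeR adjusted p = 0.985) and -0.11 with AGB1 (edgeR adjusted p = 0.888).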
